A study of Mus musculus with 9 samples.

Results

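Type IV collagen, the nidogens, perlecan and Sparc are extracellular proteins of the basement membrane, the thin matrix sheet on which basal epithelial cells rest. They were read here as the probe sets annotated to Col4a1, Col4a2, Nid1, Nid2, Hspg2 or Sparc, which gave 12 of the 45037 probe sets tested and 6 of 18193 genes. The members were picked by gene name, with earlier results of these data known, so counts of members called are a description only. RNA came from tracheal epithelium of mice hemizygous for a KRT5-GFP transgene, in which green fluorescent protein (GFP) is driven by the promoter of keratin 5, a keratin of basal cells. Tracheas were dissected and digested with enzymes, and cells were sorted by GFP fluorescence and by whether they bound the isolectin GSI-A3B into 3 gates, with 3 biological replicates of each and so 9 arrays. The GFP+ gate (GFP+, lectin+) and the lectin-only gate (GFP-, lectin+) are both labelled BCs in a series on tracheal basal cells, and the columnar gate (GFP-, lectin-) is labelled columnar epithelium. All 3 gates carry the transgene, and the age of the mice, any other allele and any pooling of animals are not given in the sources used here.

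The 6 genes have different places in the sheet. Collagen IV chains assemble into trimers and then into a covalent network, and the alpha1 and alpha2 chains of Col4a1 and Col4a2 form its most widespread trimer. Nidogens, made by Nid1 and Nid2, link the collagen IV network to the laminin network, and perlecan, made by Hspg2, is a large proteoglycan that carries heparan sulfate chains. Sparc is a secreted glycoprotein that binds collagen and affects how collagen is assembled. In the airway, basal cells attach to this sheet by hemidesmosomes, while fibroblasts, endothelial cells and smooth muscle under it also make its collagen and nidogens.

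By 2 of its 3 probe sets, Sparc was highest in the GFP+ gate, intermediate in the lectin-only gate and lowest among columnar cells, and the third was flat. Col4a2, and Col4a1 by the brighter of its 2 probe sets only, were higher in both lectin-binding gates than in the columnar gate. No difference of these 2 genes between the lectin-binding gates passed the test. Hspg2 was 2.15-fold higher in the GFP+ than in the columnar gate by 1 of its 2 probe sets, close to the threshold. No difference in Nid1 or Nid2 passed the test.

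The upstream sequences of the genes that rose in the GFP+ gate are shown for Sparc and Hspg2, because these stretches differ in base composition. Windows that end after the RefSeq start site were given for 5 of the 6 genes in build GRCm38.p6 (Nid2 had none), and 250 bases before the start were searched on both strands. Sparc lies on the minus strand of chromosome 11, and the stretch is chr11:55420081-55420330. Hspg2 lies on the plus strand of chromosome 4, and the stretch, which stops before the first base annotated to the gene, is chr4:137468553-137468750. Both are written 5′ to 3′. Capitals mark E-boxes (CANNTG) in Sparc and GC boxes (GGGCGG, either strand) in Hspg2.
Sparc: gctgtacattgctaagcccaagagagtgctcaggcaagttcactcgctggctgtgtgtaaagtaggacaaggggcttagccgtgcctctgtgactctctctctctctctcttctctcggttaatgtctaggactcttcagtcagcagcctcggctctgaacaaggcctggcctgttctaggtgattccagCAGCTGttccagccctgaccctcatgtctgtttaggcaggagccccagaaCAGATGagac
Hspg2: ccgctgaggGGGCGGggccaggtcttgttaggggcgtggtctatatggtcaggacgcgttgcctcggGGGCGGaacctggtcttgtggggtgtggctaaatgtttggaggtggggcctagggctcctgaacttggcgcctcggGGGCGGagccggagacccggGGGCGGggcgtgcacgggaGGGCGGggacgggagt
The Sparc stretch held 2 E-boxes and no GC box, and G or C made up 54.0% of its 250 bases. Hspg2 had 5 GC boxes and no E-box, with 70.0% G or C. GC boxes also occurred 2 times in Col4a2 and 1 time in Nid1. G or C made up 74.4% in Col4a1, 73.6% in Col4a2 and 64.4% in Nid1, so a high share was not particular to Hspg2. Over the 250 bases before the start, 66.22% of all 32851 windows held an E-box and 32.74% a GC box. The other motifs searched, AP-1 (TGANTCA) and the TATA box (TATAAA), had 0 matches in these 5 windows and occurred in 6.75% and 12.37% of all windows, and CCAAT (33.85% of all windows) occurred 1 time each in Col4a1, Col4a2 and Nid1. Col4a1 and Col4a2 lie head to head on chromosome 8, on the minus and plus strand. The starts used for these windows, at 11312826 and 11312805, overlap by 22 bases, so 78 bases of the full windows, which run past the start, are the same DNA. The annotated Col4a1 gene reaches 11312889, so the annotated genes overlap further. The bases searched lie on opposite sides of these starts and are not shared. A match is a description of these letters only.

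Signals are log2 units, so a difference of 1 is a 2-fold change. Background was taken as 3.57, the 95th percentile over 78 probe sets for smell and pheromone receptor genes (olfactory and vomeronasal). The median signal was 4.90 to 5.16 on all arrays but lectin-only replicate 3, where it was 5.43 and 72.8% of probe sets were above background against 65.1% to 66.1% on the others. Krt5 followed the labels, at 13.43 ± 0.01 (SD, n = 3) among GFP+, 12.88 ± 0.15 among lectin-only and 7.96 ± 1.12 among columnar arrays, so the columnar gate still held Krt5 signal. Foxj1, the transcription factor of motile cilia, ran the other way at 4.09 ± 0.40, 5.44 ± 0.32 and 7.30 ± 0.10. Of 8 columnar markers 6 were called lower in GFP+ against columnar and 2 were not called. Those 2 were nearly level in the same gate order, Cyp2f2 at 13.40, 13.49 and 13.58 and Scgb3a1 at 13.29, 13.57 and 13.93. The linear signal of the 8 summed to 19400 to 23900, 26200 to 27700 and 35900 to 40900, so both lectin-binding gates still held columnar marker signal. These are sorted pools, so fewer cells of a type and less RNA per cell cannot be told apart in any difference below.

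Of the 12 probe sets, 5 were above background on all 9 arrays, 9 were on at least 3 arrays, and 2, both of Nid1, were on 0 arrays. A probe set was called different where the limma adjusted p was under 0.05 and the log2 difference at least 1. In GFP+ against columnar, 5 of the 12 were called, all higher, where 3.86% of all probe sets were called higher and 3.14% lower. In lectin-only against columnar 4 were called, all higher, where 3.81% of all were higher and 1.28% lower. In GFP+ against lectin-only 2 were called, both of Sparc and both higher, where 0.451% of all were higher and 1.18% lower. Every array of the first-named gate lay above every array of the second for 6 of the 12 in GFP+ against columnar (12.7% of all probe sets), 6 in lectin-only against columnar (12.1%) and 3 in GFP+ against lectin-only (4.41%). The 6 in lectin-only against columnar include Nid1 probe set 1441519_at, below background on all arrays, and Nid2, above background on 1 array. Read at the brightest probe set of each gene, 4 of 6 genes were called higher in the first comparison (5.36% of all genes), 3 in the second (5.85%) and 1 in the third (0.654%). The median difference over the 6 genes was 1.83, 1.32 and 0.07 in the same order, beside -0.04, 0.07 and -0.10 over all genes. The share of calls that were higher moved with the scaling: in lectin-only against columnar it was 74.9% as deposited and 57.8% with each array centred on its median, and in GFP+ against lectin-only it was 27.6% and 39.5%. Centring moved the median of all probe sets in lectin-only against columnar from 0.06 to -0.18. The calls of the 12 probe sets were the same with arrays centred.

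**Figure D1:**
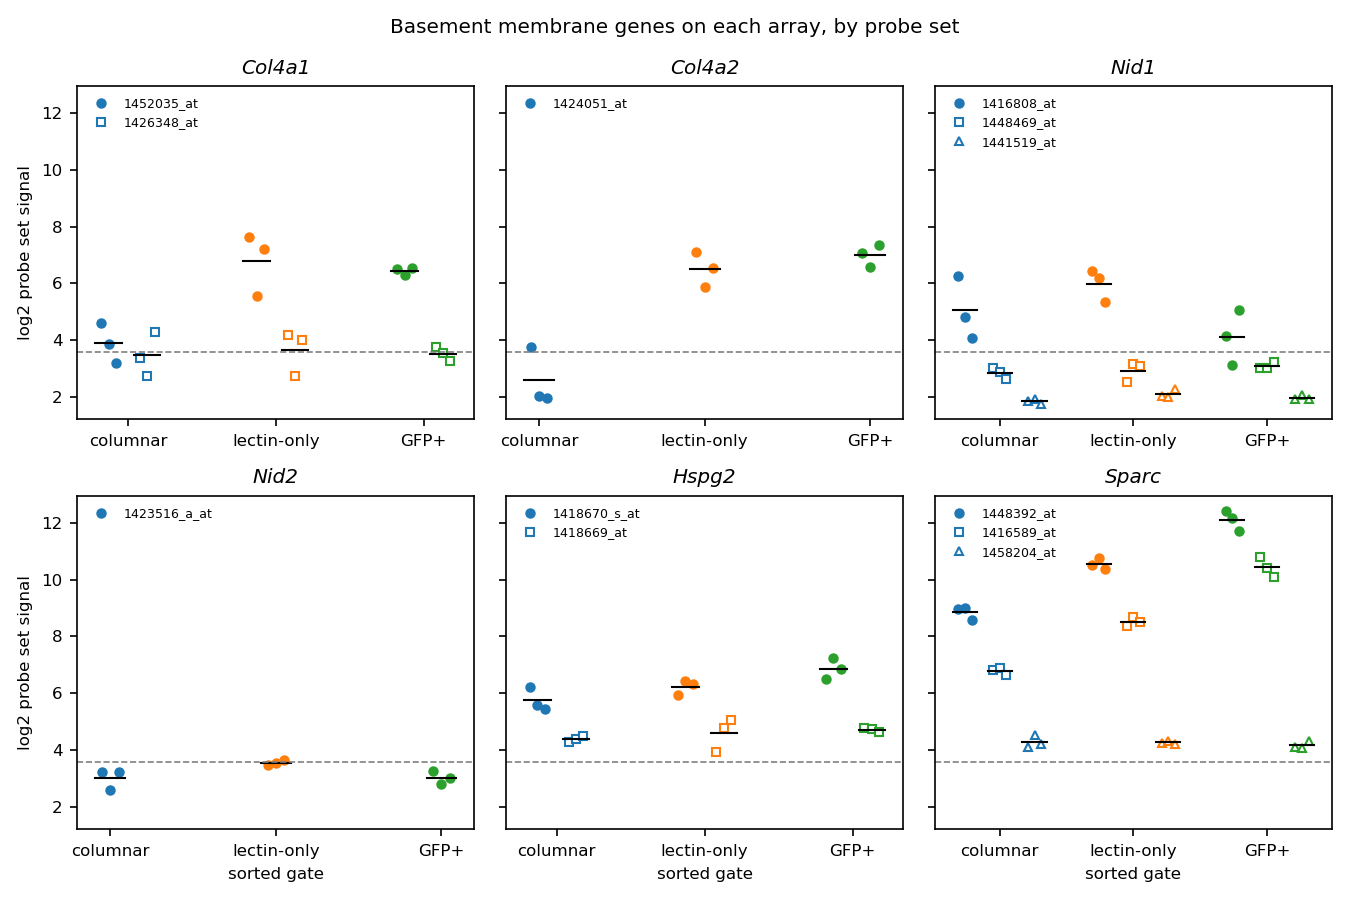
Log2 signal of each probe set of the 6 genes on each of the 9 arrays, by sorted gate. Each point is 1 array, black bars are gate means, marker shapes are the probe sets named in each panel, and the dashed line is the background level of 3.57. The 2 brighter Sparc probe sets step up from columnar to lectin-only to GFP+, Col4a2 and the brighter Col4a1 probe set separate the columnar gate from the others, and the Nid2 signals lie near or below background.

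Sparc was the brightest of these probe sets. Its probe set 1448392_at read 12.41, 12.15 and 11.70 on replicates 1, 2 and 3 of the GFP+ gate, 10.52, 10.76 and 10.35 among lectin-only arrays, and 8.97, 8.98 and 8.59 in the columnar gate. The 3 gates did not overlap: each GFP+ array lay above each lectin-only array, and each of those above each columnar array. GFP+ was 9.45-fold higher than columnar (log2 difference 3.24 ± 0.23, SE, limma adjusted p = 4.39e-05), and lectin-only was 3.24-fold higher than columnar (1.70 ± 0.23, adjusted p = 0.0023). Between the lectin-binding gates the difference was 1.54 ± 0.23, or 2.92-fold (adjusted p = 0.0119). That call was lost without GFP+ replicate 1, at 1.38 (adjusted p = 0.0542), and without lectin-only replicate 1, at 1.53 (adjusted p = 0.0506). Over the 9 fits that each left out 1 array it stayed between 1.38 and 1.74.

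The second Sparc probe set, 1416589_at, gave the same order with a slightly steeper rise. It read 10.79, 10.42 and 10.08 in the GFP+ gate, 8.38, 8.68 and 8.50 among lectin-only arrays, and 6.81, 6.91 and 6.65 among columnar arrays, again with no overlap. Its differences were 3.64 ± 0.21 for GFP+ against columnar (12.5-fold, adjusted p = 1.72e-05), 1.73 ± 0.21 for lectin-only against columnar (adjusted p = 0.00135) and 1.91 ± 0.21 for GFP+ against lectin-only (3.75-fold, adjusted p = 0.00303). All 3 calls of this probe set held in each fit that left out 1 array. The third, 1458204_at, rests on another transcript record and was flat: its arrays spanned 4.08 to 4.32 in the GFP+ gate, 4.22 to 4.34 in the lectin-only gate and 4.11 to 4.54 in the columnar gate. So 2 of the 3 Sparc probe sets, both on 1 record, carry the difference.

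Col4a2, the gene of the collagen alpha2(IV) chain, had 1 probe set, which was at or near background in the columnar gate. It read 7.07, 6.59 and 7.36 in the GFP+ gate, 7.12, 5.87 and 6.56 among lectin-only arrays, and 3.76, 2.04 and 1.96 among columnar arrays. Only columnar replicate 1 lay above background in that gate, and no array of a lectin-binding gate came down to it. The fitted log2 differences were 4.42 ± 0.49 for GFP+ against columnar (limma adjusted p = 5.14e-04) and 3.92 ± 0.49 for lectin-only against columnar (adjusted p = 0.00155). Because the columnar mean of 2.59 lies under background, these sizes are not measured folds. With arrays under background raised to that level the differences were 3.37 (adjusted p = 0.00351) and 2.88 (adjusted p = 0.00992). The lectin-binding gates overlapped, at 0.49 ± 0.49 (adjusted p = 0.823, 95% interval -0.61 to 1.60).

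Col4a1, the gene of the partner alpha1(IV) chain, was higher by its brighter probe set and not by the other. Probe set 1452035_at read 6.50, 6.30 and 6.53 in the GFP+ gate, 7.62, 5.55 and 7.20 among lectin-only arrays, and 4.62, 3.87 and 3.21 among columnar arrays. The lectin-only arrays were spread widely (SD 1.09) around the narrow GFP+ values (SD 0.12), and all 6 lay above the columnar arrays. GFP+ was 5.83-fold above columnar (2.54 ± 0.51, limma adjusted p = 0.0131) and lectin-only 7.42-fold above it (2.89 ± 0.51, adjusted p = 0.00935). The first call was lost without GFP+ replicate 3, at 2.50 (adjusted p = 0.0519). With dim arrays set to background both calls were lost, at 2.42 (adjusted p = 0.0601) and 2.77 (adjusted p = 0.0543). GFP+ against lectin-only was -0.35 ± 0.51 (adjusted p = 0.890, 95% interval -1.49 to 0.80). The other probe set, 1426348_at, is annotated to the same transcript record but lay near background, between 2.73 and 4.28 over the 9 arrays. Its GFP+ against columnar difference was 0.06 ± 0.45, and as the mean of both probe sets Col4a1 differed by 1.30 (adjusted p = 0.0528).

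Hspg2, the gene of perlecan, rose less. Probe set 1418670_s_at read 6.49, 7.24 and 6.84 in the GFP+ gate, 5.93, 6.42 and 6.34 among lectin-only arrays, and 6.21, 5.59 and 5.45 among columnar arrays. The GFP+ arrays lay above those of both other gates, and the lectin-only and columnar arrays overlapped. GFP+ against columnar was 1.11 ± 0.27 (limma adjusted p = 0.0348). That call was lost without GFP+ replicate 2 (0.91), GFP+ replicate 3 (1.12), columnar replicate 2 (1.03) or columnar replicate 3 (0.96). It was also lost as the mean of both probe sets, at 0.72 (adjusted p = 0.0607). Lectin-only against columnar was 0.48 ± 0.27 (adjusted p = 0.459) and GFP+ against lectin-only 0.62 ± 0.27 (adjusted p = 0.434). The dimmer Hspg2 probe set, 1418669_at, spanned 3.94 to 5.07, with 0.33 ± 0.27 for GFP+ against columnar (adjusted p = 0.622).

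Nid1, the gene of nidogen-1, was not called in any comparison. Its probe set 1416808_at read 4.13, 3.14 and 5.05 in the GFP+ gate, 6.43, 6.18 and 5.33 among lectin-only arrays, and 6.26, 4.82 and 4.07 among columnar arrays. The columnar arrays overlapped both other gates, while the 3 lectin-only arrays lay above the 3 GFP+ arrays. GFP+ against lectin-only was -1.88 ± 0.61 (limma adjusted p = 0.222, 95% interval -3.24 to -0.51), GFP+ against columnar -0.94 ± 0.61 (adjusted p = 0.492) and lectin-only against columnar 0.93 ± 0.61 (adjusted p = 0.539). These last values rest on single arrays: the first was -0.34 without columnar replicate 1, -0.46 without GFP+ replicate 2, -1.41 without GFP+ replicate 3 and -1.43 without columnar replicate 3, and the second was 0.44 without columnar replicate 3 and 1.54 without columnar replicate 1. The other Nid1 probe sets, 1448469_at and 1441519_at, lay between 1.76 and 3.24, below background on all arrays. Nid2, the gene of nidogen-2, was below background on all GFP+ and columnar arrays. It read 3.48, 3.56 and 3.64 in the lectin-only gate, where 1 array passed the background level, so its level there was not separable from background.

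**Figure D2:**
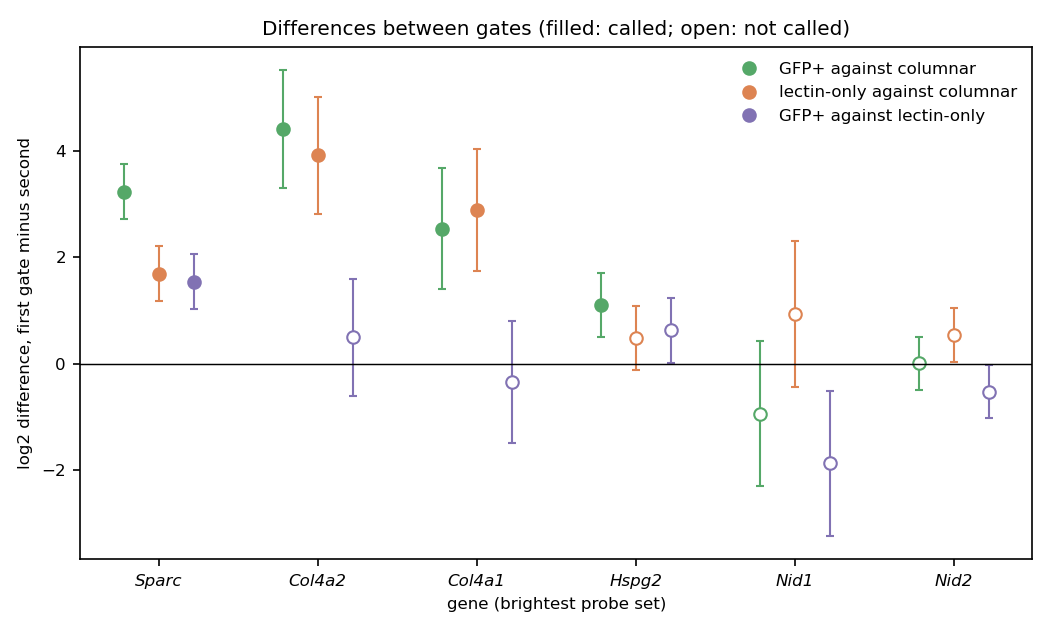
Log2 difference between gates for the brightest probe set of each gene, with 95% confidence intervals from limma, filled where called and open where not. Sparc has 3 filled points, Col4a2 and Col4a1 each have 2, Hspg2 has 1, and the Nid1 and Nid2 points are open.

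The 6 genes thus fell into unlike patterns over the gates. Likeness was measured as the root mean square distance between log2 profiles over the 9 arrays, each centred on its own mean, among 14243 other genes above background on at least 3 arrays. The arrays share gates, so a near profile is a description only. Nearest to Sparc were Adamtsl5 at 0.16, Ltbp4 (a latent TGF-beta binding protein) at 0.17 and the transcription factor Myc at 0.18, beside a spread of 1.34 in the Sparc profile. Myc averaged 10.46 ± 0.37 (SD, n = 3) on GFP+ arrays, 8.80 ± 0.31 on lectin-only arrays and 6.95 ± 0.38 on columnar arrays, in the same order as Sparc. Nearest to Col4a2 were the myosin light chain kinase gene Mylk at 0.49, Flrt2 at 0.56 and the collagen-binding receptor Antxr1 at 0.56. Nearest to Col4a1 were the netrin receptor Unc5b at 0.48, Gimap8 at 0.49 and Gas7 at 0.52.

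Col4a1 and Col4a2 lay at a distance of 0.85 from each other. Of the 14243 genes, 49 were nearer to Col4a2 than Col4a1 was, and 167 were nearer to Col4a1 than Col4a2 was. Hspg2 was nearest to Kif13a (0.19), Rasa4 (0.20) and Ago4 (0.20). Nid1 was nearest to the chemokine-binding receptor Ccrl2 (0.56), the leukocyte GTPase Rac2 (0.61) and Slc22a29 (0.63). Nid2, near background, was nearest to Mmgt2, Misp3 and Psen2, at 0.12, 0.13 and 0.15, with a spread of only 0.33 in its own profile.

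Other cell types that make these proteins could be present in a gate, and their markers were read beside the members. Summed over 11 endothelial markers, the linear signal was 157 to 186 in the GFP+ gate, 299 to 395 in the lectin-only gate and 181 to 187 in the columnar gate, and 0, 3 and 2 of the 11 were called in GFP+ against columnar, lectin-only against columnar and GFP+ against lectin-only. Cdh5 and Tie1 were below background on all GFP+ arrays, and Cdh5, Kdr, Emcn and Cldn5 on all columnar arrays. In lectin-only against columnar Tek (2.48 ± 0.45), Cldn5 (at least 2.25-fold) and Pecam1 (1.31 ± 0.25) were higher. The Tek call was lost without lectin-only replicate 1 or 3 (values from 2.00 to 2.84), and that of Pecam1 without lectin-only replicate 1 or 3 or columnar replicate 1 (values from 1.26 to 1.42). Both calls in GFP+ against lectin-only were lower in GFP+. One was Cldn5 at -1.21, lost with arrays centred, with quantile normalization, and without any 1 GFP+ array or lectin-only replicate 1 or 2. Vwf, the largest part of the lectin-only sum (25.7%), averaged 4.43 in the GFP+, 6.46 in the lectin-only and 5.45 in the columnar gate. The part of endothelial RNA in the differences of Col4a1, Col4a2 and Sparc was not tested.

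Markers of fibroblasts and contractile cells did not move as 1 group. Of 10 fibroblast markers, the fibrillar collagens Col3a1 (-3.88 ± 0.44), Col1a2 (-3.36 ± 0.51) and Col1a1 (-3.20 ± 0.49) were lower in the GFP+ than in the columnar gate, Dcn, the proteoglycan decorin, was higher at 4.36 ± 0.21, and 6 were not called. The summed fibroblast signal was 2180 to 3190 in the GFP+ gate, 934 to 1480 in the lectin-only gate and 694 to 822 in the columnar gate, nearly all of it from Dcn in the GFP+ gate, and Lum was below background on all arrays of each gate. Col1a1 lay at 4.17, 3.14 and 5.19 on GFP+ replicates 1, 2 and 3, the same order over these arrays as Nid1. Col3a1 lay at 3.31, 4.95 and 3.94 there, highest on replicate 2, where Nid1 was lowest. The part of fibroblast RNA in the Nid1 values was not tested. Of 9 smooth muscle and pericyte markers, Acta2 was higher than columnar in the GFP+ gate (2.28 ± 0.53) and in the lectin-only gate (3.26 ± 0.53), and Rgs5, below background on all columnar arrays, was at least 4.27-fold higher in the lectin-only gate. Notch3 was lower in GFP+ than in columnar (-1.49 ± 0.39), a call lost without GFP+ replicate 1 or any 1 of the columnar or lectin-only arrays (values from -1.77 to -0.96). The GFP+ call of Acta2 was lost without any 1 of the GFP+ or columnar arrays (values from 1.94 to 2.45), and that of Rgs5 without any 1 of the columnar arrays, GFP+ replicate 2 or lectin-only replicate 1 or 3 (fitted log2 values from 1.93 to 3.21). On lectin-only replicates 1, 2 and 3 Rgs5 read 6.06, 4.19 and 6.75, low on the array where Col4a1 was low. Acta2 read 8.36, 6.65 and 6.09 there, lowest on replicate 3, where Col4a1 was not low. The part of smooth muscle and pericyte RNA in the Col4a1 spread was not tested. The summed contractile signal was 429 to 612 in the GFP+ gate, 1070 to 1500 in the lectin-only gate and 852 to 932 in the columnar gate, and Notch3 made up 50.9%, 68.6% and 80.5% of it in that order (from gate means). Cnn1 was below background on all arrays of the GFP+ and columnar gates.

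Markers of leukocytes, Schwann cells and cartilage were read in the same way. Summed leukocyte signal was 5810 to 9960 in the GFP+ gate, 22200 to 29800 in the lectin-only gate and 15400 to 15900 in the columnar gate, and 9 of 12 leukocyte markers were higher in lectin-only than in columnar. Lyz2, the lysozyme gene, made up 84.6%, 48.6% and 94.3% of that sum in the same order and was lower in GFP+ than in columnar (-1.20 ± 0.22), while the pan-leukocyte gene Ptprc averaged 5.41 in the GFP+, 8.95 in the lectin-only and 3.25 in the columnar gate. Of 4 measured Schwann cell and 7 cartilage markers limma called 0 in each of the 3 comparisons. Cartilage markers summed to 54.3 to 72.0 in the GFP+ gate, 64.3 to 106 in the lectin-only and 64.5 to 78.1 in the columnar gate, and Col11a1, Matn1 and Cnmd were below background on all arrays. Schwann cell markers summed to 5140 to 5680, 6170 to 6850 and 4790 to 5160, nearly all from Mbp and Erbb3, and Cdh19 was below background on all arrays.

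**Figure D3:**
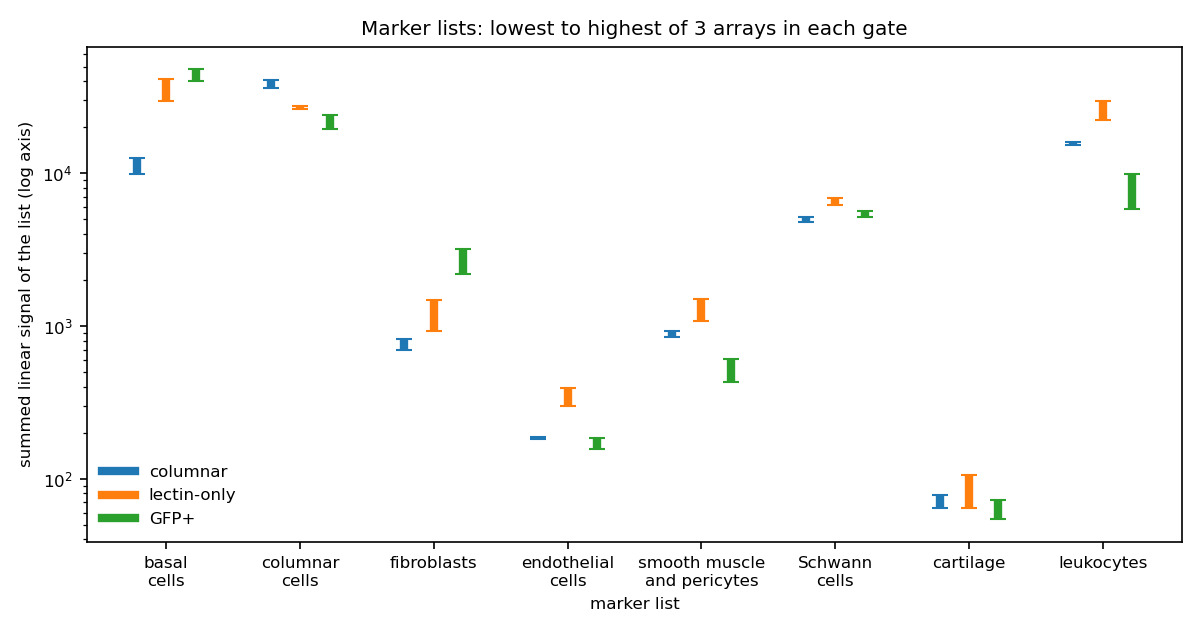
Summed linear signal of each marker list by gate, on a log axis. Each bar runs from the lowest to the highest of 3 arrays. Endothelial signal is 299 to 395 in the lectin-only gate against 157 to 186 and 181 to 187 in the GFP+ and columnar gates, basal signal is lowest in the columnar gate, and leukocyte signal is highest in the lectin-only gate.

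Other basement membrane components and their partners were read in 7 lists with 120 measured genes. In GFP+ against columnar, 33 of them were higher and 6 lower, where 5.36% and 4.96% of all genes were. Among 28 other components of basement membrane and adjoining matrix, 15 were higher, 0 were lower and 13 were not called, with a median of 1.17. The largest were Tgfbi, a matrix protein that binds collagen and integrins, at 6.57 ± 0.24 (95.3-fold, limma adjusted p = 2.35e-06), Egfl6 at 4.71 ± 0.25, the anchoring fibril collagen Col7a1 at 4.07 ± 0.41 and the perlecan-binding protein gene Vwa1 at 3.59 ± 0.32. The columnar mean of Egfl6 (3.31) lay under background, and with dim arrays raised to that level its difference was 4.43. The further collagen IV chains are given outside the naming rule, as kin of the members. Col4a6 was higher at 1.40 ± 0.21 (adjusted p = 0.00287) and Col4a3 at 1.08 ± 0.25 (adjusted p = 0.0244). The Col4a3 call was lost without GFP+ replicate 1 or 3 or columnar replicate 2 or 3 (values from 0.87 to 1.23), and with arrays centred. Col4a4 was at 1.56 ± 0.45 without passing (adjusted p = 0.0698), and Col4a5 was at 0.05 ± 0.22. Of 10 laminin chains, 4 were higher, with Lamb3 at 5.82 ± 0.32, Lama3 at 5.25 ± 0.26 and Lamb1 at 2.53 ± 0.34, and Lama4 was lower at -1.83 ± 0.41. The Lama4 call was lost without GFP+ replicate 1, 2 or 3, and its value lay between -2.17 and -1.36 over the fits that left out 1 array. The GFP+ mean of Lama4 was 3.57, at the background level, and with dim arrays raised to it the difference was -1.75.

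Enzymes that fold and crosslink collagen moved in both directions. Of 22, 4 were higher and 3 lower in GFP+ against columnar, with a median of -0.20. Higher were Loxl4, a lysyl oxidase, at 3.58 ± 0.49, the prolyl 3-hydroxylase gene P3h2, which acts on collagen IV, at 2.40 ± 0.29, and the lysyl hydroxylase gene Plod2 at 1.44 ± 0.22, while the lysyl oxidase Lox was lower at -2.04 ± 0.37 (limma adjusted p = 0.00768). The lower count was 1 or 2 in each fit that left out 1 array. It was 1 without GFP+ replicate 2 or 3, columnar replicate 1 or lectin-only replicate 1. Of 18 enzymes of heparan sulfate chains, which perlecan carries, 3 were higher and 0 lower: the 6-O-sulfotransferases Hs6st2 (3.45 ± 0.26) and Hs6st1 (1.46 ± 0.17) and the sulfatase Sulf1 (1.80 ± 0.29). Of the 7 further genes of the Sparc family, Fstl1 was higher at 4.27 ± 0.37 and the others were not called.

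Of 15 receptors for basement membrane, 4 were higher in GFP+ against columnar, with the laminin receptor Bcam at 2.90 ± 0.29 and the hemidesmosome integrin chains Itgb4 at 2.89 ± 0.23 and Itga6 at 1.54 ± 0.16. The collagen receptor Ddr2 was lower at -1.92 ± 0.31. Of 20 proteases and inhibitors of matrix, the protease Adamts1 was higher at 4.83 ± 0.23 (28.5-fold, limma adjusted p = 7.3e-06) and the procollagen protease Bmp1 at 2.68 ± 0.32, and the inhibitor Timp4 was lower at -4.53 ± 0.68. The lower count was 2 without GFP+ replicate 3. The GFP+ means of Timp4 (3.12) and Ddr2 (3.44) lay under background, so these sizes are not measured folds. With arrays under background raised to that level the differences were -4.03 and -1.77. These lists were chosen with earlier results of the same arrays known, so their direction is not independent evidence.

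**Figure D4:**
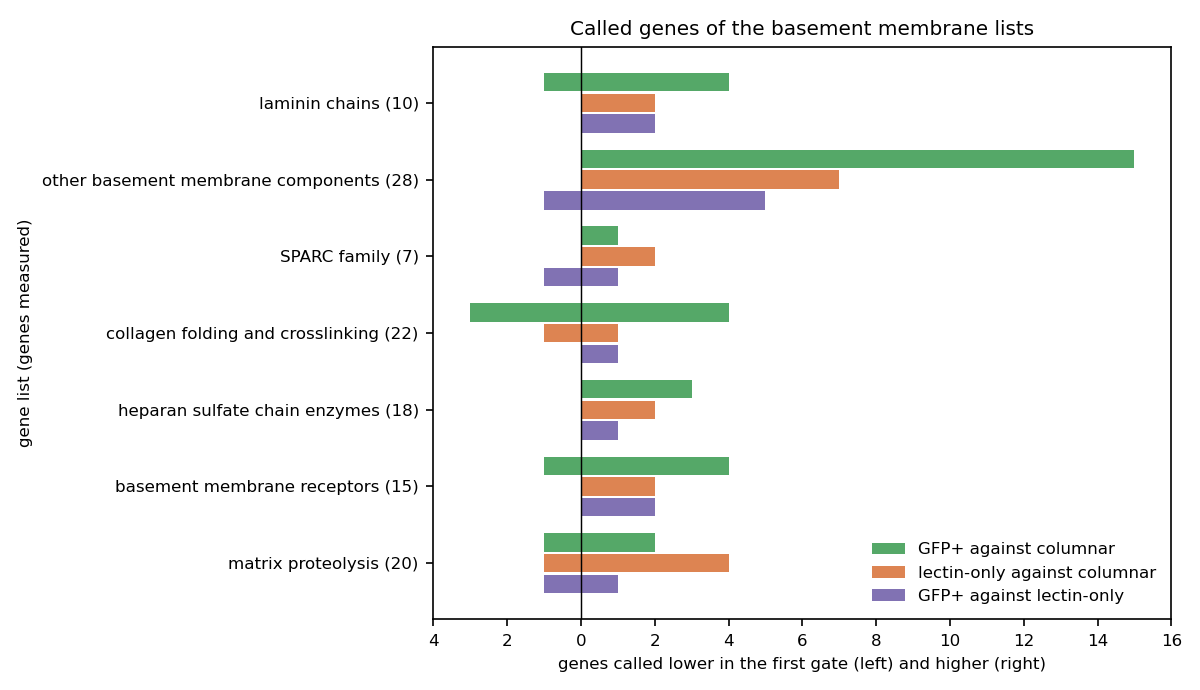
Number of genes called in each of 7 lists, lower in the first-named gate to the left of 0 and higher to the right, for the 3 comparisons, with the number of genes measured in brackets. The list of other basement membrane components has 15, 7 and 5 genes higher in GFP+ against columnar, lectin-only against columnar and GFP+ against lectin-only.

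In lectin-only against columnar, 20 of the 120 genes were higher and 2 lower, where 5.85% and 2.05% of all genes were. Over the fits that left out 1 array, the total called lay between 16 and 20. Of the 28 other components 7 were higher, with Tgfbi at 6.12 ± 0.24, Egfl6 at 3.33 ± 0.25 and Fbln1 at 2.40 ± 0.42. This count of 7 fell to between 4 and 6 in the fits that left out 1 array, and was 4 without lectin-only replicate 1. The laminin chains Lama3 (4.29 ± 0.26) and Lamb3 (3.74 ± 0.32) were higher. Sparcl1, a Sparc relative found in vessels, was higher at 2.66 ± 0.38, and Fstl1 at 1.84 ± 0.37, a call lost without columnar replicate 2 or 3, where the lowest value was 1.40. Lox was lower at -2.31 ± 0.37. Adamts1 was higher at 3.02 ± 0.23, and the collagenase Mmp13, below background on all columnar arrays, was at least 6.60-fold higher (limma adjusted p = 0.0012). In the fit with dim arrays raised to background the calls of Fbln1, Fstl1 and Mmp13 were lost. No Fbln1 or Fstl1 array lay under background, and their differences stayed at 2.40 and 1.84. That fit estimates the spread anew over all probe sets, so adjusted p-values also change for genes without dim arrays. Egfl6, with a columnar mean of 3.31 under background, was at 3.05 in that fit. Of the receptors Itgb4 (1.40 ± 0.23) and Itga6 (1.15 ± 0.16) were higher, the latter not with arrays centred on their medians, and of the heparan sulfate enzymes Hs6st1 (1.30 ± 0.17).

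In GFP+ against lectin-only, 13 of the 120 were higher and 3 lower, where 0.654% and 2.09% of all genes were. The total of 16 fell to 4 without lectin-only replicate 1, 8 without lectin-only replicate 3, 7 without GFP+ replicate 1 and 9 without GFP+ replicate 3. Vwa1 (2.56 ± 0.32), Hs6st2 (2.21 ± 0.26) and Adamts1 (1.81 ± 0.23) were higher in each fit that left out 1 array, though Hs6st2 was not called as the mean of its probe sets. Mmp13, below background on all GFP+ arrays, was at least 6.60-fold lower (limma adjusted p = 0.0057), a call lost with dim arrays raised to background. Sparcl1 was lower at -2.15 ± 0.38 and Bgn, the proteoglycan biglycan, at -1.40 ± 0.22. The Sparcl1 call was lost without GFP+ replicate 3 or any 1 of the lectin-only arrays, with values between -2.49 and -1.71, and that of Bgn without GFP+ replicate 3 or lectin-only replicate 1 or 3, with values between -1.57 and -1.25. Sparc itself, as above, was the member that differed between these gates.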

How the data were processed

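Deposited values were log2 probe set signals that the authors made with RMA (background correction, normalization and probe summary), per the submitters' processing notes; software version and filters are not given in the sources used here. The table held 45101 probe sets, of which 64 controls were left out. In the platform annotation 34945 probe sets had 1 gene symbol, 9160 had none and 932 had several, which name no gene here, and 34741 symbols were updated through RefSeq gene IDs. Gate means were fitted to all 45037 probe sets and 9 arrays in 1 model with limma 3.58.1 in R 4.3.3 (lmFit, eBayes, 6 residual and 3.48 prior degrees of freedom), and p-values were adjusted by Benjamini-Hochberg over all of them. With 3 arrays a gate, precision is limited (median SE of a difference 0.26). A gene was read at its probe set of highest mean. The fit was tested on simulated data.

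Where a gate lay below background on all 3 arrays, the fold is a bound: the brighter gate's mean against the higher of background and signal on each dim array. Named are all member probe sets, up to 4 called genes per list and comparison of largest difference, and the 3 nearest profiles per member. Of the list genes a comparison names by that rule, some whose calls were lost when 1 array was left out are covered by counts only. Members and lists were chosen with earlier results of these data known. The labels call the replicates biological and do not say whether animals were pooled, and p-values measure the spread between these samples. Alternatives were centring on medians, quantile normalization, filters and floors on dim signals, gene level fits, another variance model, a block and leaving out each array.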

Additional observations from a re-analysis of the deposited data

How the results depend on the processing

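Over 17 other settings, the 36 member differences gave 567 values, of which 15 lost a call, 0 reversed and 0 were newly called. The lost calls were Hspg2 and Col4a1 against columnar and 1 Sparc probe set between the lectin-binding gates. In GFP+ against columnar the member probe sets called fell from 5 to 3, and the member genes from 4 to 2, with dim arrays raised to background, and the genes were also 2 with probe sets averaged per gene. The pathway genes called fell from 22 to 11 in lectin-only against columnar and from 16 to 6 in GFP+ against lectin-only with dim arrays set to background. That setting refits all probe sets, so adjusted p-values also moved for genes with no dim array. In GFP+ against columnar, Sparc probe set 1448392_at stayed at 3.24 while its limma adjusted p went from 4.39e-05 to 0.00103. These falls are therefore not counts of genes with dim signal. Leaving out 1 array gave 3 to 5 member probe sets and 2 to 4 member genes in GFP+ against columnar, and 1 to 2 probe sets and 0 to 1 genes in GFP+ against lectin-only, where pathway genes ranged from 4 to 17. The cause of these changes was not tested. Same-numbered arrays of different gates leaned together in part: 7 of 9 correlations of their deviations were above 0 and 5 above 0.1 (range -0.07 to 0.30), and in 13 of 18 cases an array correlated best with its own number. The median was 0.14 for the same number and -0.03 for different numbers. Not every pair passed 0.1, so the number was not taken as a pairing in the main fit. Whether same-numbered samples shared a sort is not stated, and this cut does not settle it. The main p-values take all arrays as independent. With the replicate number as a block Hspg2 lost its call (adjusted p = 0.0534), and member probe sets called were 4, 4 and 2 and pathway genes 42, 25 and 21 in the 3 comparisons. Hspg2 also lost its call with further quantile normalization (0.99), with a trended, robust variance model (adjusted p = 0.0565), with probe sets averaged (0.72) and with dim arrays raised to background (adjusted p = 0.0791). In that last setting the Hspg2 difference was unchanged at 1.11, as none of its arrays lay under background, and only the estimated spread and adjusted p moved. Differences from a gate near background, as for Col4a2, depend on where that level is set.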
